A study of Mus musculus with 6 samples.

Results

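The Myt1 family holds 3 zinc finger transcription factors, Myt1, Myt1l and St18. Each was taken from probe sets that the platform annotation gives to exactly 1 gene, and where a gene has several, its probe set was chosen by the highest mean over all arrays. The genes themselves were selected on an earlier result, the third against the lateral ventricle, in which Myt1 had passed. All 3 genes were found among the 19938 genes of the table, with 1 probe set each, so the choice by mean level had nothing to decide. RNA came from 6 cultures of neural stem cells of wild type C57BL/6 female mouse embryos at embryonic day 17.5, taken from the subventricular zone, with 3 cultures from the lateral and 3 from the third ventricle. All cultures were grown in suspension with the supplements N2 and B27 and the growth factors FGF and EGF, each at 20 ng/ml, and the labels give no treatment or transgene in either group. The labels call the arrays of a region biological replicates, and no label ties an array to 1 animal, so the p-values speak for the spread between these arrays, which may in part be technical.

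Myt1 family factors bind DNA through clusters of zinc fingers of the C2HC type that recognise a short element with the core AAGTT. They act largely as repressors and recruit Sin3 and histone deacetylase complexes. Myt1 is known from oligodendrocyte progenitors and newly forming neurons, where it can counter Notch signalling by repressing Hes1. Myt1l is expressed in neurons, where it silences programs of other lineages, and it is part of factor mixtures that convert fibroblasts into neurons. St18 is known from differentiating neurons and endocrine cells.

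The bases before the starts of Myt1, the member that differed between the regions, are shown to let its own control region be read for the family's core element, with each match to AAGTT on either strand in capitals (AACTT on the printed strand). RefSeq (GRCm38.p6) lists 3 start sites for Myt1, and the array does not tell which of them was used.
Myt1 start site 1 (chr2:181763082-181763331, strand +): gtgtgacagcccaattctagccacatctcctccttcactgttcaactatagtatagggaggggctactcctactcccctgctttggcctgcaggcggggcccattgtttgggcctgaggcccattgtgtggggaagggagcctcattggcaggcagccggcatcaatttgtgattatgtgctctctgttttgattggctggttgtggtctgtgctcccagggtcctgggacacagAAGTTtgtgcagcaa
Myt1 start site 2 (chr2:181766779-181767028, strand +): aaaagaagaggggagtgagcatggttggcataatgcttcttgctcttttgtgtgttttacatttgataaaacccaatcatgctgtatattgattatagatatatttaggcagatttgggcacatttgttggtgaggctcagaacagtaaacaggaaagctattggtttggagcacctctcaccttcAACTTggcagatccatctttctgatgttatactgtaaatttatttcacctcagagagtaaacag
Myt1 start site 3 (chr2:181796057-181796306, strand +): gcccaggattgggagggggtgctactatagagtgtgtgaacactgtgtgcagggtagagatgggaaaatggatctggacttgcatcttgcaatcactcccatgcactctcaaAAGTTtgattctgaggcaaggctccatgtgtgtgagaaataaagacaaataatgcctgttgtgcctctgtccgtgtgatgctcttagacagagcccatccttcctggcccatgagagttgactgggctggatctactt
Each of the 3 windows of 250 bases held 1 match, which began 15, 64 and 138 bases before the start. Of the windows of Myt1l, 2 of 5 held a match, and 35.3% of all 32851 windows in the table did. A window of St18 was not used here. A match is a stretch of letters and shows no binding in these cells.

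Among the 3 genes, Myt1 had a clear signal and was lower in the cultures of the third ventricle. Its log2 values were 7.58, 7.57 and 7.24 in the lateral arrays (replicates 1, 2 and 3), and 6.53, 6.18 and 6.25 in those of the third ventricle in the same order. All lateral arrays lay above all arrays of the third ventricle, as for 9.24% of all genes, and 0.71 on the log2 scale separated the lowest lateral from the highest array of the third ventricle. The means were 7.46 ± 0.19 (SD, n = 3) and 6.32 ± 0.18 (SD, n = 3). The difference, given throughout as the third minus the lateral ventricle, was -1.14 on the log2 scale (SE 0.14, 95% interval -1.45 to -0.83), a 2.21-fold higher signal in lateral cultures. It passed in limma's moderated test with Benjamini-Hochberg adjustment over all genes (adjusted p = 0.0255). In bulk RNA, fewer cells that express Myt1 and less Myt1 RNA per cell cannot be told apart.

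**Figure D1:**
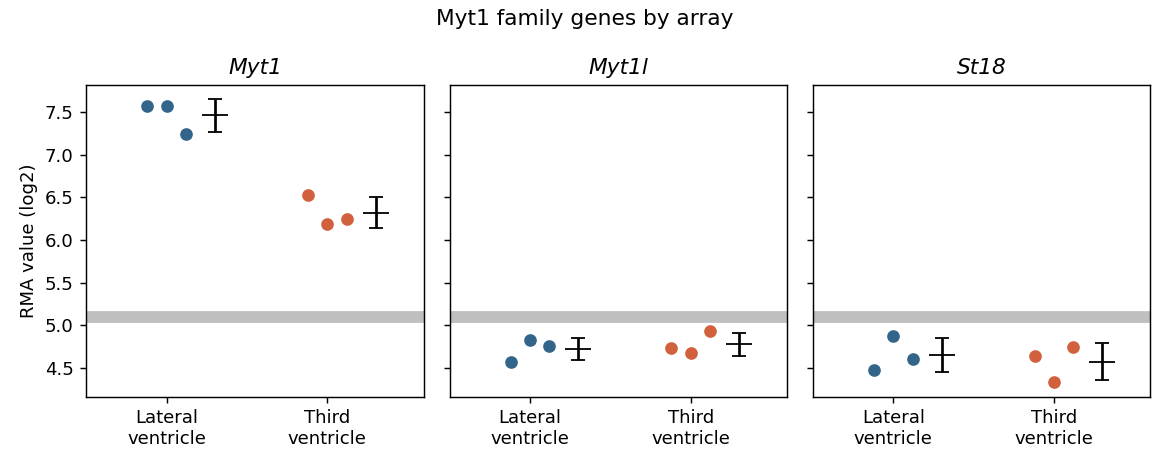
RMA values (log2) of Myt1, Myt1l and St18 in each array (points), with the mean ± SD of each region (n = 3) beside them. The grey band spans the 95th percentile of olfactory receptor genes over the 6 arrays, a gauge of background: Myt1 lies above it in 6 of 6 arrays, Myt1l and St18 in 0 of 6.

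The 2 other members were not measured above background. As a gauge of background, 1027 olfactory receptor genes, which act in the nose, had a 95th percentile between 5.03 and 5.16 in the 6 arrays. Myt1 lay above the gauge of its array by 1.07 to 2.54 on the log2 scale, so its lower level in the third ventricle was still a signal above background.

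Myt1l gave log2 values of 4.57, 4.83 and 4.76 in the lateral ventricle arrays and 4.73, 4.67 and 4.93 in those of the third ventricle. The groups overlapped, and each array lay between 0.19 and 0.46 below its gauge. The difference was 0.06 (95% interval -0.20 to 0.32, limma, adjusted p = 0.874).

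St18 gave log2 values of 4.47, 4.87 and 4.61 in the lateral ventricle arrays and 4.64, 4.33 and 4.75 in those of the third ventricle. These groups overlapped too, and each array lay 0.29 to 0.78 below its gauge. The difference was -0.08 (95% interval -0.41 to 0.26, limma, adjusted p = 0.868). Values this close to background are compressed by RMA, so the intervals of Myt1l and St18 limit the change of the signal and not that of the transcript, and no fold is given.

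Thus 1 of the 3 genes passed, where 0.231% of all genes did, 0.0853% as lower in the third ventricle. The family was proposed with the result of Myt1 known, so the count describes the family and tests nothing about it. Of the 46 genes that passed, 17 were lower in the third ventricle, and Myt1 ranked 11 among these by size. Over all genes the median difference was -0.02, and 41 genes (0.206%) had a lower difference than Myt1.

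The change of Myt1 was also set against that of the other members within each array. Myt1 minus Myt1l was 2.74 ± 0.26 (SD, n = 3) in lateral cultures and 1.54 ± 0.24 (SD, n = 3) in those of the third ventricle, a difference of -1.20. Myt1 minus St18 went from 2.81 ± 0.25 to 1.75 ± 0.21 (SD, n = 3), a difference of -1.06. Both gave an exact two-sided permutation p = 0.1, the smallest that 3 against 3 arrays allow, and 0.15 after adjustment over the 3 pairs (exact permutation test). Myt1l minus St18 differed by 0.14 (exact permutation p = 0.3, adjusted 0.3). Since Myt1l and St18 lay at background, these differences mostly restate that of Myt1.

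The arrays themselves differed in ways that the regions do not explain. Over all genes, lateral ventricle array 2 correlated with the arrays of the third ventricle at r = 0.991, and at 0.980 and 0.982 with the other lateral arrays, 1 and 3, as a description over genes. Markers of the labelled cell type were measured in every array: 15 of 16 neural stem and progenitor markers, among them the fatty acid binding protein Fabp7 (12.97 ± 0.03 and 13.03 ± 0.13, SD, n = 3), lay above the gauge in all 6 arrays. Only 1 of 11 microglia and 1 of 9 endothelial markers did so, as did 5 of 10 mesenchymal and 6 of 9 ependymal and choroid plexus markers. The median of all genes, 5.54 to 5.59 in the 6 arrays, itself lay above the gauge. Such counts alone therefore do not show which cell types the cultures held.

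Cell cycle genes separated the lateral arrays from each other. All 23 measured had a positive difference, with a median of 1.15, and 0 passed; in the fit that omits lateral ventricle array 2, 23 of 23 passed as higher. The median was 0.73 with lateral ventricle array 1 omitted and 1.78 with lateral ventricle array 2 omitted. Relative to each gene's mean, the median of 23 cell cycle genes was -1.41, 0.57 and -0.89 in the lateral arrays, replicates 1, 2 and 3 in turn. In the arrays of the third ventricle it was 0.55 to 0.58. Lateral ventricle arrays 1 and 2, which lay farthest apart among the lateral arrays in these genes, had Myt1 values of 7.58 and 7.57. Lateral ventricle array 2, level with the third ventricle in cell cycle genes, was 1.04 above the highest Myt1 value of the third ventricle. This is a comparison of 1 array. When lateral ventricle array 2 was left out, Myt1 differed by -1.09 (limma, adjusted p = 0.00326), in a fit that called 8.25% of all genes. Adding the mean of the cell cycle genes to the model as a covariate, the difference was -1.20 and no longer passed (limma, adjusted p = 0.0805). The arrays of the third ventricle hardly differed in these genes. The covariate's slope thus came almost wholly from the 3 lateral arrays, so that fit cannot decide the matter. The part of cell cycle state in the difference of Myt1 was not tested.

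**Figure D2:**
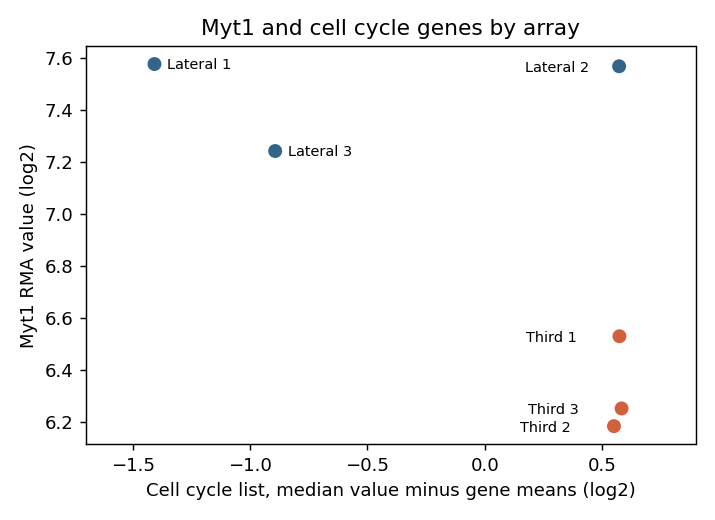
Myt1 value (log2, vertical axis) against the median of 23 cell cycle genes, each relative to its own mean (log2, horizontal axis), for each of the 6 arrays; blue is lateral, orange the third ventricle. Lateral ventricle array 1 lies lowest on the horizontal axis (-1.41) and lateral ventricle array 2 (0.57) among the arrays of the third ventricle, with Myt1 at 7.58 and 7.57.

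The call for Myt1 depended on which arrays were included, and the size of its difference changed little. The difference lay between -1.25 and -1.07 when each array was left out in turn. The adjusted p was 0.0740 without lateral ventricle array 1, and 0.0684, 0.185 and 0.198 without arrays 1, 2 and 3 of the third ventricle (limma), so 4 of the 6 omissions ended the call. Groups that do not overlap fix the direction in these fits, so it is no sign of stability.

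**Figure D3:**
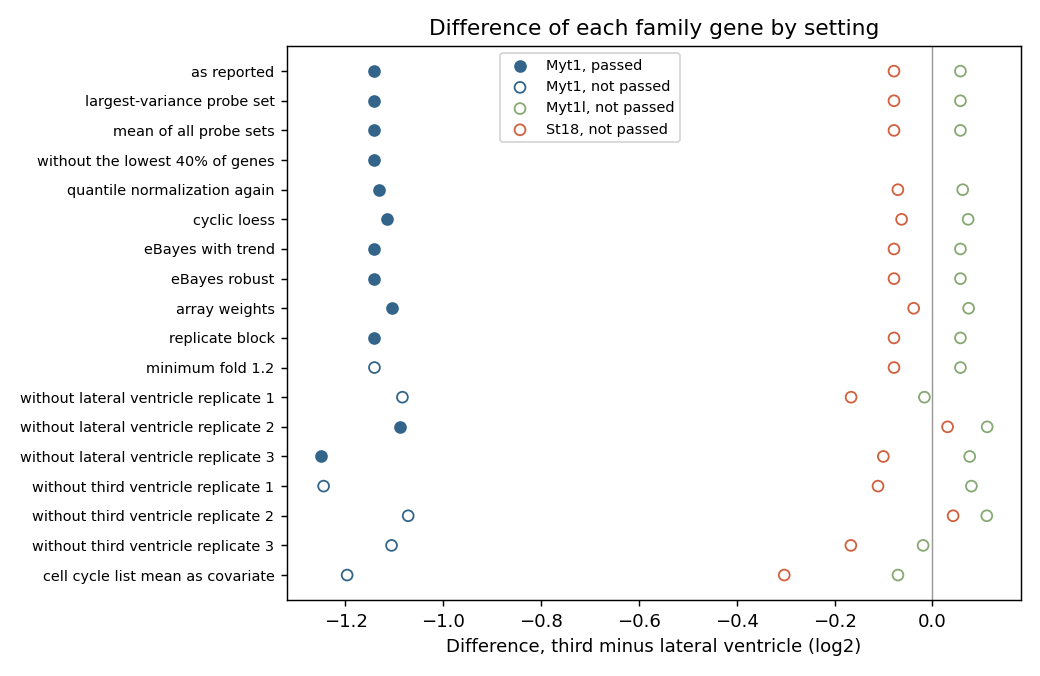
Difference, the third minus the lateral ventricle (log2, horizontal axis), of each family gene in the reported fit and under each of 17 alternatives (rows). Filled points passed at an adjusted p below 0.05: Myt1 lies between -1.25 and -1.07 and passed in 11 of 17, while Myt1l and St18 lie between -0.30 and 0.11 and passed in none of the 16 that kept them.

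The genes most like Myt1 were found by the root mean square difference between log2 values over the 6 arrays. Each value was taken relative to its gene's mean. The search covered 11521 genes with a mean above background (5.10), without olfactory, vomeronasal and predicted genes and those with LOC or Rik names. The closest was Fhl1, a LIM domain protein, at 0.11. Its log2 values were 7.78, 7.62 and 7.56 in the lateral arrays and 6.76, 6.60 and 6.47 in those of the third ventricle, a difference of -1.04 (limma, adjusted p = 0.0172). Meis2, a homeobox factor of the TALE class, followed at 0.12 with a difference of -1.03 (adjusted p = 0.0620), and the cell adhesion molecule Alcam at 0.16 with -1.14 (adjusted p = 0.0609). Pcdh15, a protocadherin, at 0.19 differed by -1.51 and passed (limma, adjusted p = 0.00707). Its second probe set differed by -0.11, but had a mean of 5.27, close to background, against 6.51 for the one used. Omg, the oligodendrocyte myelin glycoprotein, stood at 0.19 with -1.29 (adjusted p = 0.0913). The call of Fhl1 was lost in 5 of the 6 omissions of an array (adjusted p from 0.0507 to 0.161) and kept without lateral ventricle array 2, and that of Pcdh15 was lost without array 2 or 3 of the third ventricle (0.0858 and 0.0798). All 5 were chosen for their likeness to Myt1, so their lower values in the third ventricle are a description. Without lateral ventricle array 2 only 1 of the 5 stayed among the closest 5, without lateral ventricle array 3 it was 2 of 5, and 3 when array 2 of the third ventricle was omitted.

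**Figure D4:**
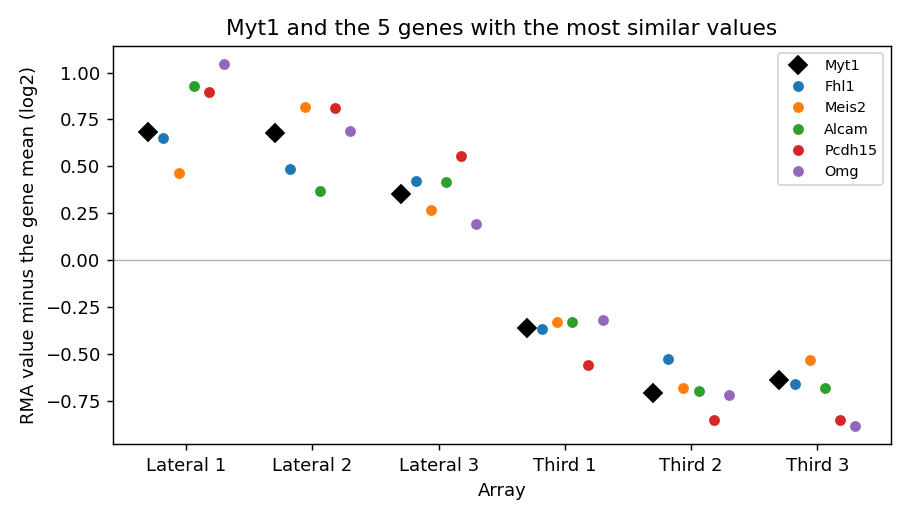
Values of Myt1 (black diamonds) and the 5 genes most like it (coloured points), each as the log2 RMA value minus that gene's mean over the 6 arrays, by array. All 6 genes lie above 0 in each lateral array and below 0 in each array of the third ventricle.

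Oligodendrocyte progenitor genes, a lineage in which Myt1 is known, were lower in part. Of 18 measured, 2 passed as lower in the third ventricle, 0 as higher and 16 did not pass. In all, 14 had a difference below 0, against 54.6% of all genes, and the list's median was -0.20 (-0.26 to -0.20 with single arrays left out). Pdgfra, the PDGF receptor by which these progenitors respond to their mitogen, had log2 values of 8.78, 8.25 and 8.53 in lateral and 6.93, 6.58 and 6.69 in the third ventricle arrays. Its groups did not overlap, as was so for 9 of the 18 genes and for 17.0% of all genes, and it fell by 1.79 on the log2 scale (limma, adjusted p = 0.00707). Lhfpl3, a tetraspan membrane protein of these cells, fell by 1.22 (limma, adjusted p = 0.00746). These calls depended on single arrays: without array 1 of the third ventricle Pdgfra alone of the 18 passed (Lhfpl3, adjusted p = 0.0587), and omitting array 2 or 3 of that region left 0, with adjusted p of 0.0858 and 0.0798 for both genes (limma).

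The transcription factors of this lineage did not pass. Sox10, which drives myelin genes, had log2 values of 7.17, 6.80 and 6.91 in lateral and 6.45, 6.16 and 6.05 in the third ventricle arrays, with no overlap and a difference of -0.74 (limma, adjusted p = 0.118). Gpr17, a receptor of committed progenitors, differed by -1.35 (limma, adjusted p = 0.133) and Sox6, which holds progenitors immature, by -0.78 (limma, adjusted p = 0.101). The lineage determinants Olig1 and Olig2, which cultured stem cells also express, had differences of 0.17 and 0.09 (limma, adjusted p = 0.744 and 0.754), and Ptprz1, the progenitor gene with the highest mean, -0.08. Without lateral ventricle array 2, where 3.88% of all genes passed as lower, 6 of the 18 did: Pdgfra, Lhfpl3, Gpr17, Sox10, Sox6 and Zfp488.

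Of the 18 progenitor genes, 17 lay above the gauge in all 6 arrays and Matn4 in none. Their summed linear signal was 5424 to 6114 in lateral arrays and 4440 to 4738 in those of the third ventricle, ranges that do not overlap. The summed signal of this list was thus lower in the third ventricle, as Myt1 was, and its part in the difference of Myt1 was not tested. A linear sum weighs the brightest genes most, here Ptprz1, whose difference was -0.08. The lower sum rests on some genes, such as Pdgfra (-1.79) and Lhfpl3 (-1.22), and is not a trait of the whole list. Of the 18 genes, 4 had a difference above 0. Myelin genes, which mark later stages, had a median of -0.12 (-0.22 without array 3 and -0.07 without array 2 of the third ventricle) over 17 measured, with 12 below 0 and 0 passing. Their summed signal, 766 to 1216 in lateral arrays, was 698 to 704 in those of the third ventricle, also without overlap, and its part in the difference of Myt1 was not tested. Of the 17, 7 lay below the gauge in every array. Cnp differed by -0.30 (limma, adjusted p = 0.550) and Bcas1 by -0.74 (limma, adjusted p = 0.471), and without lateral ventricle array 1 these were -0.12 and -0.21. Ugt8a, an enzyme of myelin lipid synthesis, differed by -1.01 (limma, adjusted p = 0.175). It passed as lower when lateral ventricle array 2 was omitted, where 3.88% of all genes did. The summed myelin signal leaned on single genes: Bcas1 lay at 8.50 in lateral ventricle array 1, against 6.81 and 6.98 in arrays 2 and 3. In lateral ventricle array 3, Bcas1 (6.98) and Ugt8a (6.63) were above every array of the third ventricle, while Cnp (6.54) was below each.

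**Figure D5:**
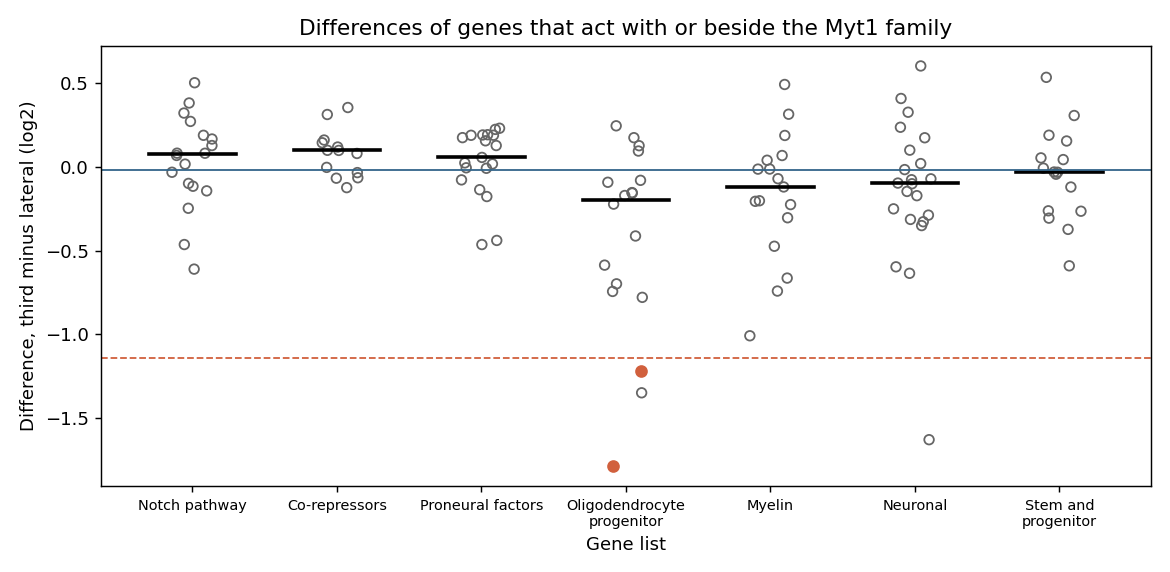
Difference of single genes, the third minus the lateral ventricle (log2, vertical axis), in 7 gene lists (horizontal axis); filled points passed at an adjusted p below 0.05, black bars are list medians, the blue line is the median of all genes (-0.02) and the dashed line is Myt1 (-1.14). The 2 passing genes are Pdgfra and Lhfpl3, and the list medians run from -0.20 to 0.10.

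Genes of the Notch pathway, which Myt1 is known to oppose, did not pass. Of 18 measured, 0 passed, 11 had a difference above 0 and the median was 0.07 (0.0052 without array 1 and 0.13 without array 2 of the third ventricle, and over 1.5 times off in all 6 omissions). Hes1, the Notch effector that Myt1 represses, had log2 values of 6.17, 6.19 and 6.47 in lateral and 7.004, 6.55 and 6.77 in the third ventricle arrays. The groups did not overlap, as for 17.0% of all genes in either direction, and the lowest array of the third ventricle was just above lateral ventricle array 3. The difference of Hes1 was 0.50 (95% interval 0.18 to 0.83, limma, adjusted p = 0.276). With single arrays left out its adjusted p ran from 0.124 (without lateral ventricle array 2) to 0.643 (limma). The related repressor Hes5 differed by -0.03 (adjusted p = 0.933), the receptor Notch1 by -0.12 (adjusted p = 0.770) and Rbpj, the DNA-binding partner of the cleaved receptor, by -0.14 (adjusted p = 0.574), all by limma. Hey1, another Notch effector, differed by -0.61 (limma, adjusted p = 0.366), and Dll3, a ligand found in neural precursors, by -0.46 (limma, adjusted p = 0.216). Both passed as lower without lateral ventricle array 2, in a fit where 3.88% of all genes did. In that array Hey1 lay at 7.21, level with the third ventricle (7.14 to 7.35).

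The genes of the co-repressor list, subunits and partners of such complexes, were measured well in both regions. All 13 lay above the gauge in all 6 arrays, 0 passed and their median was 0.10 (0.012 when lateral ventricle array 3 was left out). Sin3b, a scaffold that Myt1 family factors bind, had log2 values of 6.45, 6.47 and 6.52 in lateral and 6.47, 6.46 and 6.50 in the third ventricle arrays, a difference of -0.0031 (95% interval -0.20 to 0.19). Kdm1a, the histone demethylase LSD1, and its partner Rcor1 both differed by -0.07 (limma, adjusted p = 0.831 and 0.807). The histone deacetylase Hdac2 differed by 0.10 (limma, adjusted p = 0.795) and the histone chaperone Rbbp7 by 0.31 (limma, adjusted p = 0.483). Hdac1 and Rbbp7 passed as higher without lateral ventricle array 2, in a fit that called 8.25% of all genes in either direction.

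Proneural factors and their partners also did not pass, with 0 of 19 measured, 12 above 0 and a median of 0.06. The median turned to -0.015 without lateral ventricle array 3 and was 0.15 without array 2 of the third ventricle. Of the 19, 4 lay below the gauge in every array. Some of the list's genes, Dll3 among them, are also in the Notch pathway list, so the 2 lists are not separate. Neurog2, a proneural factor that starts neuronal differentiation, differed by -0.18 (95% interval -0.49 to 0.13). Pou3f2, which joins Myt1l in the conversion of fibroblasts, differed by 0.19 (95% interval -0.35 to 0.73). The E proteins Tcf4 and Tcf12, dimer partners of proneural factors, differed by -0.0056 and 0.22 (limma, adjusted p = 0.989 and 0.360).

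Neuronal markers gave 0 passing of 22 measured, 15 below 0 and a median of -0.10 (-0.03 without lateral ventricle array 2, -0.16 without array 2 of the third ventricle). Dcx, the microtubule protein of young neurons, had log2 values of 7.70, 6.41 and 6.86 in lateral and 5.81, 5.27 and 5.003 in the third ventricle arrays. The groups did not overlap, with the third ventricle below as for 9.24% of all genes, and the difference was -1.63 (limma, adjusted p = 0.136). Dcx lay above the background gauge in 3 of 3 lateral and 2 of 3 arrays of the third ventricle, so its lower values are close to background. Stmn1 and Cd24a, the list's members with the highest mean, differed by 0.33 and -0.17. The summed linear signal of the list was 8852 to 11013 in lateral and 10071 to 10952 in the third ventricle arrays, ranges that overlap. A linear sum weighs the brightest genes most, here Stmn1 and Cd24a, so it says little about the other members. The part of neuronal cells in the difference of Myt1 was not tested. Without lateral ventricle array 2, in a fit that called 8.25% of all genes, Dcx, Mapt and Tubb3 passed as lower and Stmn1 as higher. Stem and progenitor markers had a median of -0.03 (-0.06 to -0.0099 with single arrays left out) with 0 of 16 passing, with Fabp7 at 0.05 and the intermediate filament Vim at 0.19. Omitting lateral ventricle array 2, again with 8.25% of all genes called, Nes passed as higher (0.86, limma, adjusted p = 0.0103). The matrix protein Tnc passed as lower in that fit (-0.79, limma, adjusted p = 0.0291). At an unadjusted limma p below 0.05, which 2521 of the 19938 genes reached, the counts were 8 of 18 oligodendrocyte progenitor genes, 3 of 18 Notch pathway genes, 1 of 13 co-repressors, 3 of 19 proneural factors, 7 of 22 neuronal, 3 of 17 myelin, 1 of 16 stem and progenitor and 20 of 23 cell cycle genes.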

How the data were processed

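Total RNA of 6 cultures was hybridised to Affymetrix arrays after amplification from 500 pg to 50 ng, per the labels' protocols. The authors deposited log2 values per probe set, and the submitters' processing notes name RMA and Affymetrix Expression Console 1.1 as tools. RMA normalizes arrays to each other and compresses dim values. The genome build is not given in the sources used here. Of 35556 probe sets, 21789 had 1 gene symbol, 1621 several and 12146 none. The probe set with the highest mean stood for a gene, which gave 19938 genes, with no filter on dim genes.

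Regions were compared with limma 3.58.1 (lmFit, eBayes) in R 4.3.3, adjusted by Benjamini-Hochberg over all genes at 0.05. The number of arrays limits the precision. On simulated data for this comparison over 19938 genes, 34.3% of genes changed 1.5-fold, 88.1% changed 2-fold and 100% changed 4-fold were recovered. The simulated noise was independent between genes and equal in both regions, without shifts shared by genes of an array. The lateral arrays did hold such shifts, so these shares can overstate what the real arrays recover. The 23 cell cycle genes, with a median difference of 1.15, gave 0 passing. The members, 13 gene lists with 200 entries and the background gauge were chosen with earlier results of these data known. Genes were named by a rule: the members, the 5 genes most like a member whose SD over the arrays was at least 0.3 (Myt1 alone), passing members (up to 4) and the 2 of highest mean from each list, and some partners whatever their result. Gpr17, Sox6, Zfp488, Matn4, Dll3, Hdac1, Dcx, Mapt, Tubb3, Ugt8a, Nes, Tnc and, among the other observations, Scg2, Chga, Chgb and Syp lie outside it and were named with their values in view.

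The alternatives were the choice of probe set, the dim-gene filter, normalization, the variance prior, array weights, a replicate block, a minimum fold of 1.2, each array left out and, chosen after seeing the data, a cell cycle covariate.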

Additional observations from a re-analysis of the deposited data

How the results depend on the processing

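Myt1 kept a negative difference in all 17 alternatives, from -1.25 to -1.07 (also the range when single arrays were left out), and passed in 11 (limma, adjusted p from 0.00326 to 0.198). Beside the 4 omissions of an array given above, the call ended at a minimum fold of 1.2 (-1.14, adjusted p = 0.0847) and with the cell cycle covariate (-1.20, adjusted p = 0.0805). Myt1l and St18 passed in none of the 16 alternatives that kept them, and the filter on the lowest 40% of genes removed both. Myt1l ran from -0.0188 to 0.112 with single arrays left out and turned to -0.0702 with the cell cycle covariate, and St18 ran from -0.167 to 0.0425 and was -0.303 with the covariate. Both turned in sign without single arrays, Myt1l at -0.0161 without lateral ventricle array 1 and -0.0188 without array 3 of the third ventricle, St18 at 0.0312 without lateral ventricle array 2 and 0.0425 without array 2 of the third ventricle, and the cause was not tested. The number of passing genes was 46, and 158 with array weights, 17 at the minimum fold, 25 with the covariate and 4 to 1644 with single arrays left out (1644 without lateral ventricle array 2). With the replicate number as a block 57 genes passed and Myt1 kept its call (adjusted p = 0.0280). Deviations of same-numbered arrays from their region means correlated at 0.24, 0.11 and 0.07 and each array correlated best with its own number, a hint from the data, but the labels do not say that numbers pair cultures. The differences between members moved by less than their spread in every alternative run. The signal over background limits Myt1l and St18.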

Other observations

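Genes of neuroendocrine and islet cells, where Myt1 family factors are also expressed, had 0 passing of 11 measured and a median difference of 0.08 (-0.02 without lateral ventricle array 2). Of the 11, 4 lay below the gauge in every array. With the lowest 40% of all genes left out, the median of the 7 that stayed was -0.34. Chga, a granin, differed by 0.08 (limma, adjusted p = 0.796), while other genes of secretory vesicles had negative differences without passing. Scg3, which helps load secretory granules, differed by -0.54 (limma, adjusted p = 0.303), Chgb by -0.41 (limma, adjusted p = 0.351) and Syp, a protein of synaptic vesicles, by -0.34 (limma, adjusted p = 0.356). Scg2, another granin, differed by -1.20 (limma, adjusted p = 0.315) and lay above the background gauge in 2 of 3 lateral and 0 of 3 arrays of the third ventricle. It passed as lower without lateral ventricle array 2 (-1.62, limma, adjusted p = 0.0105), where 3.88% of all genes did. Its difference was -0.71 without lateral ventricle array 3. Nkx2-2, a homeobox factor of islets and oligodendrocyte progenitors, differed by 0.13 (limma, adjusted p = 0.737). In the other marker lists 0 genes passed, and the medians were -0.03 for microglia, -0.0036 for endothelial, 0.02 for mesenchymal and 0.04 for ependymal and choroid plexus genes. At an unadjusted limma p below 0.05 the counts were 5 of 11 neuroendocrine and 0 of 11 microglia genes, and 1 in each of the other lists. Of all 19938 genes, 2521 reached that level. The endothelial median turned in sign in 3 of the 6 omissions of an array, at most to 0.07 without array 1 of the third ventricle, and the mesenchymal one to -0.02 without lateral ventricle array 1. Among these, Acta2, an actin of contractile cells, differed by 0.77 (limma, adjusted p = 0.292) and Dynlrb2, a dynein light chain of motile cilia, by 0.71 (limma, adjusted p = 0.338). Dynlrb2 differed by 0.95 as a passing gene with lateral ventricle array 2 omitted (limma, adjusted p = 0.0306), in a fit that called 8.25% of all genes. With lateral ventricle array 3 omitted it differed by 0.41.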
